A study of Mus musculus with 2 samples.

Results

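The nuclear genes that code for the subunits of the 5 complexes of oxidative phosphorylation were described in the midbrain of mouse embryos of strain B6NCrl at embryonic day 16.5. A gene was a member if it was protein-coding and its symbol began with Ndufa, Ndufb, Ndufs, Ndufv or Ndufc and a number, with Uqcr, with Cox4 to Cox8 or with Atp5, or was Sdha, Sdhb, Sdhc or Sdhd. Of 85 matching identifiers 84 were measured, among 21474 protein-coding genes and 43346 Ensembl genes in all. By name they were 37 genes of complex I, 4 of complex II, 8 of complex III, 18 of complex IV and 17 of complex V.

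Total RNA longer than 200 nucleotides was sequenced in 2 libraries from 10 ng of RNA each with spike-in sequences added. The libraries are biological replicates of 1 group, both from pools of male and female embryos that carry the same donor identifier. Replicate 2 pooled the midbrains of 37 embryos, and the labels do not state the size of the pool of replicate 1. Since all tissue belongs to 1 healthy group, conditions could not be tested against each other, no p-values are given, and differences between replicates describe these 2 libraries only.

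The complexes sit in the inner mitochondrial membrane. Complexes I, III and IV pass electrons from NADH to oxygen and pump protons, complex II feeds in electrons from succinate, and complex V, the ATP synthase, uses the proton gradient to make ATP. The mitochondrial genome codes for a small core of complexes I, III, IV and V, all other subunits come from nuclear genes, and several subunits of complex IV exist as paralogues of which some are known from muscle, testis or lung. Neurons depend on this pathway for most of their ATP.

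Replicate 2 held 36576263 expected counts and replicate 1 held 31830355, where an expected count is the estimated number of reads of a gene. TPM, the unit of all levels here, is abundance per length as a share of everything measured, the spike-ins among it, and they took 5.47% of TPM in replicate 2 and 3.74% in replicate 1. Among midbrain markers Otx2 was at 64.5 TPM in replicate 2 and 56.3 TPM in replicate 1, Gata3 at 77.2 and 71.4 TPM, and Tfap2d at 48.4 and 44.0 TPM, while En1 and Pax7 stayed below 10 TPM. The hindbrain genes Hoxa2 and Hoxb3 and the muscle gene Myod1 stayed below 1 TPM. Fewer cells of a type and less RNA per cell cannot be told apart in such bulk tissue.

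As a group the members were among the abundant mRNAs of the tissue. Their median level was 309.7 TPM in replicate 2 and 304.4 TPM in replicate 1 (307 ± 3.74, SD, n = 2), against 5.21 and 5.25 TPM for all protein-coding genes. At least 1 TPM in both libraries was reached by 80 of the 84 members, against 62.1% of all protein-coding genes. At least 100 TPM in both was reached by 73 of 84, against 7.75% of all protein-coding genes. The median member stood at percentile 97.9 of protein-coding genes by mean TPM.

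Together the members took 3.21% of the TPM of all Ensembl genes in replicate 2 and 3.07% in replicate 1. As a share of expected counts the mean was 1.27%. Counts grow with length, and the members had a median length of 658 bases against 2083 bases for all protein-coding genes. Complex I took 1.07% ± 0.0386 of TPM, complex V 0.944% ± 0.0211, complex IV 0.716% ± 0.0170, complex III 0.304% ± 0.0183 and complex II 0.106% ± 0.00438 (SD, n = 2). The sums run over unequal numbers of genes.

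By the median of their genes the complexes were ordered differently. Complex V was highest at 496 TPM in replicate 2 and 499.9 TPM in replicate 1. Complex III followed at 388 and 368 TPM, and complex IV at 375 and 361 TPM. Complexes III and IV did not differ beyond their spread, because the 368 TPM of complex III in replicate 1 lay under the 375 TPM of complex IV in replicate 2. Complex I stood at 254.5 TPM in replicate 2 and 250.5 TPM in replicate 1, and complex II at 228 and 218 TPM, so both replicates of complex I exceeded both of complex II. Without its restricted paralogues, described below, complex IV held 11 genes with a median of 652 ± 4.33 TPM (SD, n = 2), above complex V.

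**Figure D1:**
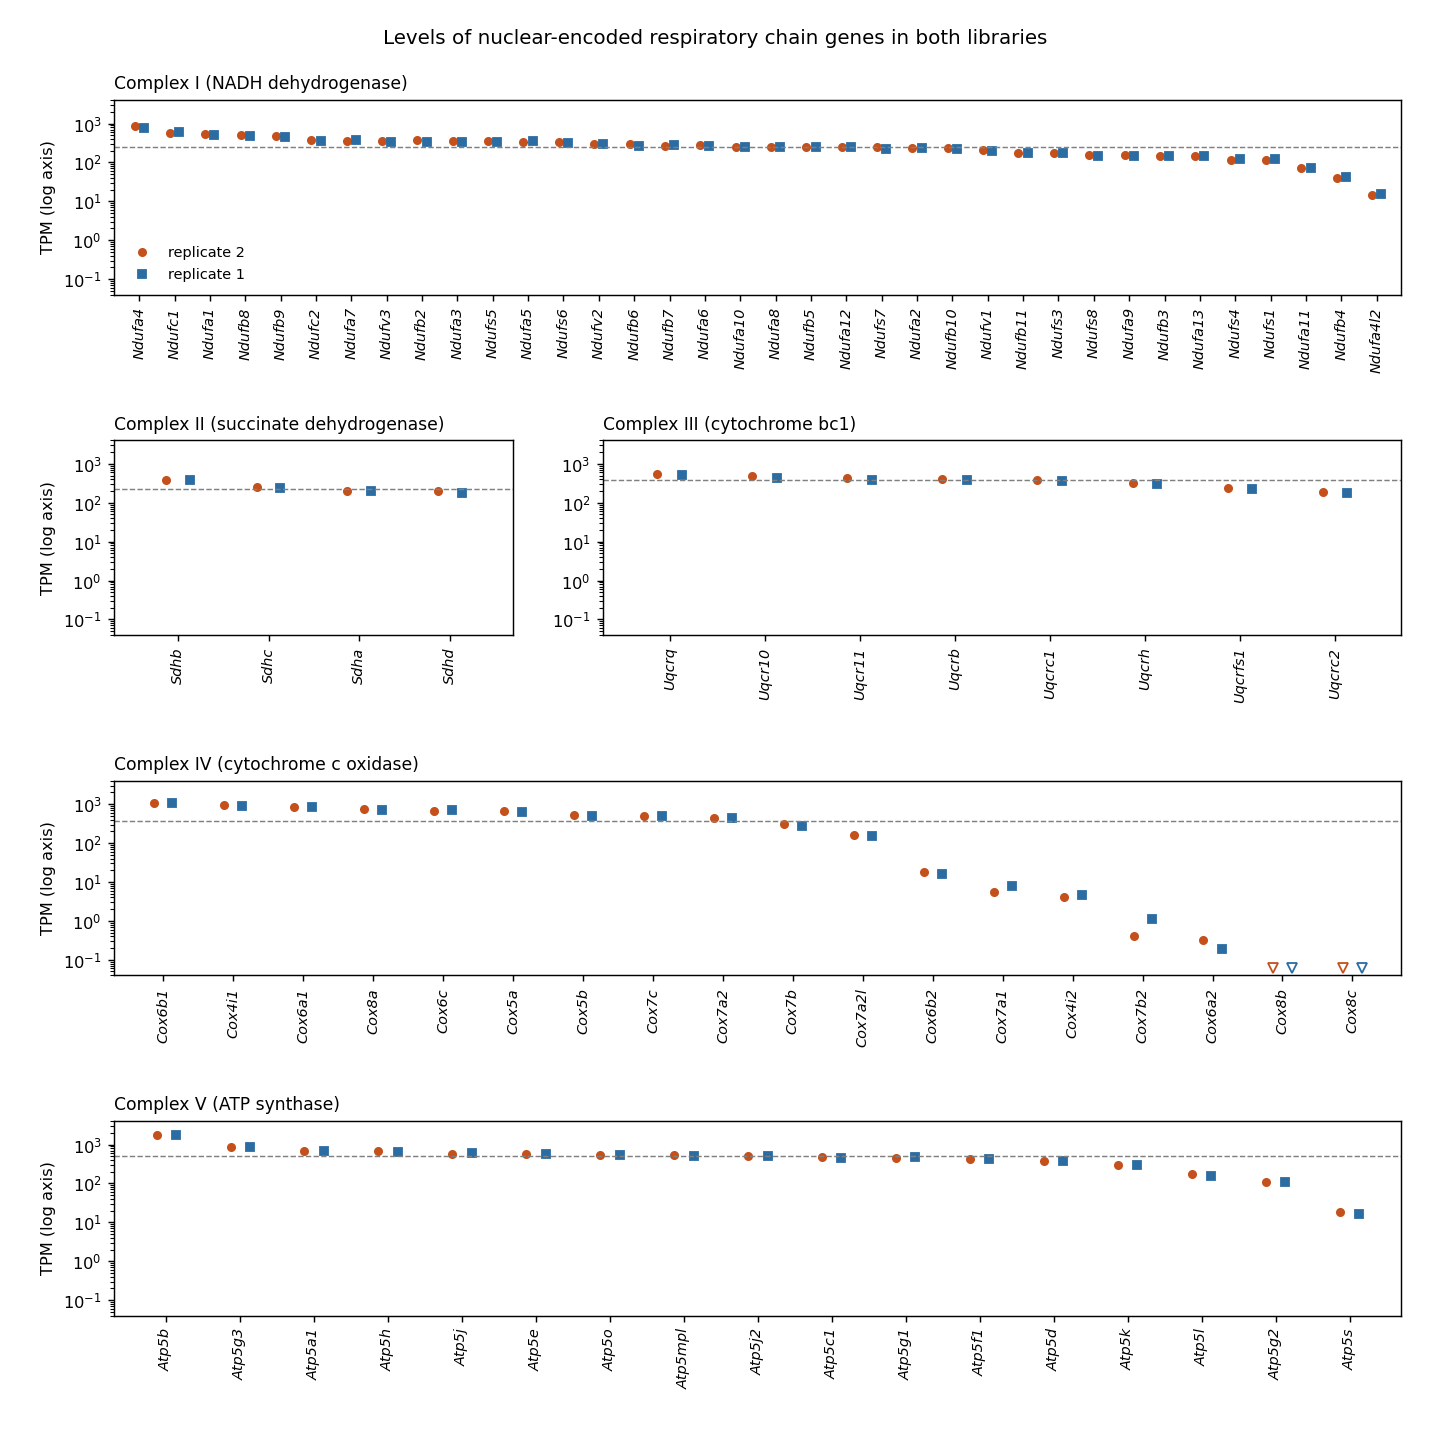
TPM of the members, all but 1, in replicate 2 (circles) and replicate 1 (squares), on a log axis, by complex and ordered by mean level; the dashed line is the median over all members of the complex and open triangles at the bottom mark 0 counts. The members of complexes II and III lie within a narrow band, whereas complex IV splits into 11 genes above 100 TPM and 7 genes below 20 TPM.

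Complex I, the NADH dehydrogenase, has a catalytic core and a larger shell of accessory subunits. The 7 nuclear core genes, among them Ndufs1, Ndufs3, Ndufs7, Ndufs8, Ndufv1 and Ndufv2, had a median of 189.6 ± 0.636 TPM, and the 30 other genes 269 ± 7.90 TPM (SD, n = 2). Ndufv2, which carries an iron-sulfur centre, was the highest of the core at 296 TPM in replicate 2 and 289.9 TPM in replicate 1. Ndufs1, the largest of them with a row of iron-sulfur centres, was the lowest at 114 and 120.5 TPM. The other genes ran from 40.1 TPM for Ndufb4 to 582 TPM for Ndufc1 by mean, apart from Ndufa4 and Ndufa4l2.

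Ndufa4 led the genes with a complex I name at 871 TPM in replicate 2 and 789 TPM in replicate 1. Its protein was first assigned to complex I and is now known as a subunit of cytochrome c oxidase. Ndufc1, an accessory subunit of the membrane arm, came next at 567 TPM in replicate 2 and 597 TPM in replicate 1. The ranges of these 2 genes did not overlap. At the low end, Ndufb4, another membrane arm subunit, was at 39.3 and 40.9 TPM, and Ndufa4l2, a paralogue of Ndufa4, at 14.3 and 15.2 TPM. Ndufb4 shares its sequence with a pseudogene, and with the TPM of that copy added it stood at 304.9 TPM by mean. That TPM is scaled to the copy's own length of 390 bases, against 645 for Ndufb4 in replicate 1. The sum therefore cannot be set against the median of the complex. Of 37 genes 29 lay within 2-fold of the median of the complex, 3 above that range and 5 below it. For 19 of the 36 neighbours in the order of levels the replicate ranges overlapped, so much of the order in the middle was not resolved.

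Complex II, the succinate dehydrogenase, was the most even, with all 4 genes within 2-fold of their median. Sdhb, the iron-sulfur subunit, was highest at 379.6 TPM in replicate 2 and 377 TPM in replicate 1. Sdhc, which helps to anchor the enzyme in the membrane, followed at 257 and 238 TPM. Sdha, the flavoprotein that oxidises succinate, had 199.6 and 199.0 TPM, and Sdhd, the other anchor, 199.0 and 180.3 TPM. Sdha and Sdhd overlapped, and Sdhb stood clear of the rest by over 100 TPM in either library.

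In complex III, the cytochrome bc1 complex, 7 of 8 genes lay within 2-fold of the median. Uqcrq, a small subunit near cytochrome b, was highest at 560.1 TPM in replicate 2 and 514 TPM in replicate 1, and Uqcr10 next at 475 and 444 TPM. Uqcrfs1, the Rieske iron-sulfur protein that hands electrons on, was at 236 and 229 TPM. Uqcrc2, a core protein known to be needed for assembly, was lowest at 187 and 179 TPM, below its partner Uqcrc1 at 377 and 352 TPM. Only 1 of the 7 neighbours in this order overlapped between replicates.

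Complex V separates into the catalytic F1 head, the stalk, the membrane part and the ring of c subunits. The 5 F1 genes had a median of 575 ± 9.16 TPM, the 4 stalk genes 566 ± 1.07 TPM, the 3 c subunit genes 459.9 ± 19.2 TPM and the 4 membrane part genes 397 ± 3.78 TPM (SD, n = 2). Atp5l of the membrane part and Atp5g1 and Atp5g2 of the c ring share sequence with abundant pseudogenes, described below. The order of the membrane part and the c ring is therefore not settled. Atp5b, the catalytic beta subunit of F1, was the highest of all members at 1754 TPM in replicate 2 and 1735 TPM in replicate 1. It rested on 57326 and 48159 expected counts and lies at chr10:128083273-128090391 on GRCm38. Atp5a1, the alpha subunit that alternates with beta in the head, reached 684 and 665 TPM, so beta exceeded alpha by over 1000 TPM.

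Next to Atp5b stood Atp5g3, a gene of the c subunit, at 865 TPM in replicate 2 and 858 TPM in replicate 1. Atp5g2, another c subunit gene, was at 109 and 109.9 TPM, and at 274 TPM by mean with the level of a pseudogene copy added. Atp5s was the lowest at 18.9 and 16.5 TPM. The product of Atp5s is known as a coupling factor rather than a structural subunit, and the next gene above it was over 5 times higher by mean. Of the 17 genes 13 lay within 2-fold of the median.

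Complex IV, the cytochrome c oxidase, had the widest spread. Cox6b1, a small subunit on the outer face of the enzyme, was highest at 1059 TPM in replicate 2 and 1066 TPM in replicate 1. Cox4i1, the largest nuclear-encoded subunit, followed at 947 and 889 TPM, and Cox6a1, another small subunit, at 841 and 851 TPM. The 11 genes that are not restricted paralogues ranged from 155 TPM for Cox7a2l to 1062 TPM for Cox6b1 by mean. The 7 other genes are paralogues known from particular tissues and lay at 17.1 TPM or less.

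The paralogue pairs were compared gene by gene within each library, with TPM so that lengths are corrected. Cox4i2, the lung form of the largest subunit that is known to respond to oxygen, had 4.14 TPM in replicate 2 and 4.56 TPM in replicate 1, and Cox4i1 was 229-fold higher in replicate 2 and 195-fold in replicate 1. Cox6b2, a form known from testis, had 17.7 and 16.4 TPM and was the highest of the restricted genes. Cox6b1 exceeded it 59.7-fold and 65.1-fold.

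Forms known from heart and skeletal muscle were low or absent. Cox7a1 had 5.43 TPM in replicate 2 and 7.95 TPM in replicate 1, from 31 and 39 counts, and Cox7a2, the form of most tissues, was at 445 and 441 TPM. The ratio of Cox7a2 to Cox7a1 was 82.0-fold in replicate 2 and 55.5-fold in replicate 1. Cox6a2 rested on 4 counts in replicate 2 and 2 in replicate 1, at 0.33 and 0.19 TPM, with exact 95% Poisson intervals of 0.0904 to 0.850 TPM and 0.0234 to 0.699 TPM. The log2 ratio of Cox6a1 to Cox6a2 was 11.32 in replicate 2 with a counting interval of 9.95 to 13.18, and 12.13 in replicate 1 with an interval of 10.25 to 15.15. Intervals and floors cover counting error only.

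Cox8b, the muscle form of the smallest subunit, and Cox8c, known from testis, had 0 counts in both libraries. A count of 0 allows up to 3 counts per library, which is 0.529 TPM in replicate 2 and 0.616 TPM in replicate 1 for Cox8b, and 0.369 and 0.430 TPM for Cox8c. Cox8a, the form of most tissues, stood at 745 TPM in replicate 2 and 715 TPM in replicate 1. With the floor, Cox8a was 1408-fold higher than Cox8b in replicate 2 and 1160-fold higher in replicate 1. Against Cox8c these ratios were 2018-fold and 1662-fold. With the exact intervals the log2 ratio was at least 10.16 in replicate 2 and 9.88 in replicate 1 for Cox8b. For Cox8c it was at least 10.68 and 10.40.

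Cox7b2, a further testis form, had 0.42 TPM in replicate 2 and 1.10 TPM in replicate 1, from 4 and 9 counts. Cox7b, its counterpart on the X chromosome, was at 306 and 280 TPM. The ratio of Cox7b to Cox7b2 was 728-fold in replicate 2 and 254-fold in replicate 1, and the counting intervals of the log2 ratio, 8.16 to 11.39 and 7.07 to 9.12, overlapped. Ndufa4 exceeded Ndufa4l2, which is known to be induced by low oxygen, 60.8-fold in replicate 2 and 52.0-fold in replicate 1. All 8 ratios of a common to a restricted form were thus above 50-fold in both libraries.

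Markers of cells in which some of these forms are known were measured beside them. Of 7 muscle markers, Acta1 was highest at 8.73 TPM in replicate 2 and 7.62 TPM in replicate 1, Myh7 had 1.71 and 1.80 TPM, and the other 5 (Myh3, Myl1, Tnnt3, Ckm and Myog) stayed between 0.10 and 1.30 TPM. The 7 summed to 12.7 TPM in replicate 2 and 11.5 TPM in replicate 1, and their part in the levels of Cox7a1 and Cox6a2 was not tested. All 6 markers of vascular mural cells, in which Ndufa4l2 and Cox4i2 are known to be found, were detected, from 2.41 TPM for Abcc9 to 96.9 TPM for Vtn in replicate 2 and from 2.93 to 108 TPM in replicate 1. Their sums were 153.5 TPM in replicate 2 and 171 TPM in replicate 1. Their part in the levels of Ndufa4l2 and Cox4i2 was not tested.

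**Figure D2:**
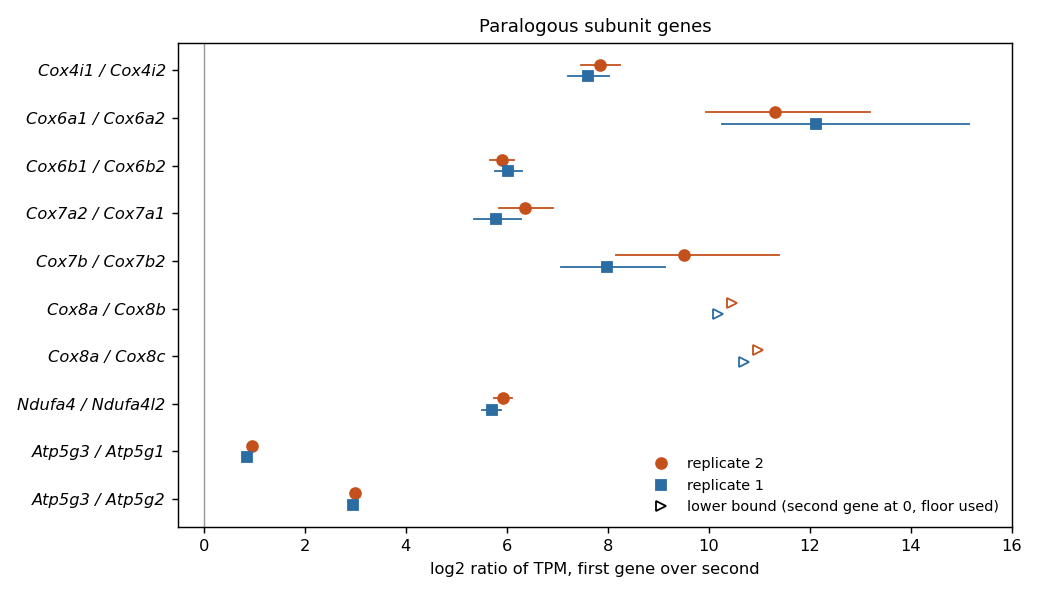
The log2 ratio of TPM of the first over the second paralogue in replicate 2 (circles) and replicate 1 (squares); lines are 95% Poisson intervals from the count of the second gene, and open triangles are lower bounds with the second gene at 3 counts. The 8 ratios of common to restricted forms lie above 5.6, whereas those among the c subunit genes lie between 0.86 and 2.99.

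Promoter windows of 300 bases, 250 before and 50 after the start, were taken from RefSeq on GRCm38.p6 for the 68 members that matched. No window was found for 16 members, among them Atp5a1, Atp5mpl, Cox4i1, Cox4i2, Cox6a2, Cox6c, Cox8c, Ndufa2, Ndufa4l2, Ndufb9, Ndufs1, Sdhc, Uqcrb, Uqcrc2 and Uqcrq. The cores searched on both strands were GCGCANGCG for NRF1, CCGGAAG for ETS factors and AAGATGGC for YY1, and overlapping matches were counted apart. The NRF1 core was present for 20 of 68 members (29.4%) and 9.63% of 17492 protein-coding genes. The ETS core was present for 16 members (23.5%) and 12.9% of genes, and the YY1 core for 10 members (14.7%) and 3.57% of genes.

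At least 1 of the 3 cores was found for 38 of 68 members (55.9%), against 22.8% of protein-coding genes, and 8 members held 2 kinds. Median GC content was 57.3% over the 73 windows of members and 56.3% over 21263 windows of protein-coding genes. Members with a core had a median level of 333 TPM and those without 293 TPM. The 30 without a core include the restricted paralogues Cox6b2, Cox7a1, Cox7b2 and Cox8b, at 17.05 TPM or less by mean. Those with a core include no restricted paralogue. These medians therefore do not compare like genes, and a link of the cores to level was not tested. Of the 10 matches to the YY1 core 8 lay 22 to 45 bases after the start, whereas 20 of 33 matches to the NRF1 core began within the 100 bases before it. A match is only a string of letters, and binding was not measured.

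Windows of 4 members are printed because they hold the contrast between an abundant and an absent paralogue (Cox8a and Cox8b) and all 3 kinds of core (Cox6a1 and Ndufs6). They read 5′ to 3′ on the minus strand, with matched cores in capitals (in reverse complement where the match is on the other strand), and lie at chr5:115348909-115349208 for Cox6a1, chr13:73328433-73328732 for Ndufs6, chr19:7217567-7217866 for Cox8a and chr7:140900397-140900696 for Cox8b, on GRCm38.p6.
Cox6a1: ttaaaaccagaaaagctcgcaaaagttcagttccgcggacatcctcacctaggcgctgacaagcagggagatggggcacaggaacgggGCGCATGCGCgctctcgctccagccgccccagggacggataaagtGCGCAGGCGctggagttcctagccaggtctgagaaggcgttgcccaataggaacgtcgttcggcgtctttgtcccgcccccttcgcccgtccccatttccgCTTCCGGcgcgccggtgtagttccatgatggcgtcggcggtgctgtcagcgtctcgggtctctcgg
Ndufs6: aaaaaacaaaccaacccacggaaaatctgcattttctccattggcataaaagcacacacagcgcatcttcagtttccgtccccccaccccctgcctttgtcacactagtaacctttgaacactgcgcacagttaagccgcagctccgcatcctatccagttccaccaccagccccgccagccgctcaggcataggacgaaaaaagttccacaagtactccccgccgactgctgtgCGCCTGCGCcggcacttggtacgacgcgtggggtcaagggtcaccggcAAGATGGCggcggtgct
Cox8a: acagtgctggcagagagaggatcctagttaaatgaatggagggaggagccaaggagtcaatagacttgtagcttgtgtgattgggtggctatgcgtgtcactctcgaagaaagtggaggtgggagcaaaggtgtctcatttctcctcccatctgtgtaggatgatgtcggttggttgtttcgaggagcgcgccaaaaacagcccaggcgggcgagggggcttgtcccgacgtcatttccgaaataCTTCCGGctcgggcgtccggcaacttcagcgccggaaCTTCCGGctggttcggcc
Cox8b: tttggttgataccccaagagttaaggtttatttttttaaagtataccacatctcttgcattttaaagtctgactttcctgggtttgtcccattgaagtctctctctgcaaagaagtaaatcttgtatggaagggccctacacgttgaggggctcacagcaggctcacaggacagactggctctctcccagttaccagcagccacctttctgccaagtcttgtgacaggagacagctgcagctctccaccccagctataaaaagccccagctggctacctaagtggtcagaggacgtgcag

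The window of Cox6a1 holds 3 matches to the NRF1 core, 2 of which overlap, and 1 to the ETS core. That of Ndufs6, an accessory subunit of complex I at 327 TPM in replicate 2 and 314 TPM in replicate 1, holds an NRF1 core before the start and a YY1 core after it. Cox8a has 2 ETS cores, and Cox8b, at 0 counts, has none of the 3 in this window. Other members without any core were abundant too, among them Atp5b, the highest of all.

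The paralogues of complex IV differ in protein sequence over much of their length. Identity over aligned residues was 50% for Cox4i1 and Cox4i2, 64.5% for Cox6a1 and Cox6a2, 47.7% for Cox6b1 and Cox6b2, and 57.3% for Cox7a2 and Cox7a1. It was 42.65% for Cox8a and Cox8b, 32.4% for Cox8a and Cox8c, 50% for Cox7b and Cox7b2 and 62.2% for Ndufa4 and Ndufa4l2. The c subunit genes behave otherwise: Atp5g1, Atp5g2 and Atp5g3 code for precursors of 136, 146 and 141 residues that share their last 78 residues exactly. That stretch holds the mature c subunit, and the N-terminal part is an import sequence that is cut off.

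These 3 genes for the same mature protein were unequal. Of their summed level of 1421 TPM in replicate 2 and 1441 TPM in replicate 1, Atp5g3 gave 60.9% and 59.5%, Atp5g1 31.4% and 32.9%, and Atp5g2 7.66% and 7.62%. Atp5g3 was 1.94-fold above Atp5g1 in replicate 2 and 1.81-fold in replicate 1. Over Atp5g2 it was 7.95-fold and 7.81-fold higher. Atp5g1 was at 446 TPM in replicate 2 and 474 TPM in replicate 1. Both Atp5g1 and Atp5g2 share sequence with abundant processed pseudogenes, described next. The TPM of those copies, scaled to their own shorter lengths, was then added. With it added, Atp5g3 was 1.13-fold above Atp5g1 in replicate 2 and 1.23-fold in replicate 1, and 3.32-fold and 2.99-fold above Atp5g2. The shares were then 45.8% and 46.6% for Atp5g3, 40.4% and 37.8% for Atp5g1, and 13.8% and 15.6% for Atp5g2.

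Processed pseudogenes are copies of spliced mRNA inserted into the genome, and housekeeping genes with short mRNAs are known to have many. Expected counts are estimates that need not be whole, and how reads that match both a gene and its copy were divided is not stated. The words of 31 bases in each member's transcripts were looked up in the transcripts of all other measured genes. At least 20 words were shared with 59 processed pseudogenes by 32 members, and 18 members shared over 10% of their words with some other gene. No such word was shared with another measured gene by 30 members.

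For 5 members a pseudogene with at least 90% of its words in the member was itself listed at 10 TPM or more in both libraries. Gm10221, at chr5:24581554-24581862 on GRCm38, was listed at 711.0 TPM in replicate 2 and 711.8 TPM in replicate 1, and all of its words occur in Atp5l, a small membrane subunit at 178 and 154 TPM. Ndufb4c, at chr15:73809507-73809896, was listed at 271 and 258 TPM, 6.60 times the mean level of Ndufb4, and all of its words occur in Ndufb4. These 2 members were among the lowest of their complexes.

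Gm12338 was listed at 576 TPM in replicate 2 and 581 TPM in replicate 1 beside Cox7c, a small subunit of complex IV at 494 and 511 TPM. Gm10175 was listed at 152 and 177 TPM beside Atp5g2. All words of Gm12338 occur in Cox7c, and all words of Gm10175 in Atp5g2. Gm10039 was listed at 318 TPM in replicate 2 and 223 TPM in replicate 1 beside Atp5g1, with 92.9% of its words shared.

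The TPM of each copy was also added to that of its parent, a choice made after the values were seen. The sums were 878 ± 16.7 TPM for Atp5l, 304.9 ± 7.83 TPM for Ndufb4 and 1080.4 ± 15.2 TPM for Cox7c (SD, n = 2). They were 274 ± 18.5 TPM for Atp5g2 and 731 ± 47.7 TPM for Atp5g1 (SD, n = 2). A copy's TPM is scaled to its own length, as with Gm12338 at 192 bases beside Cox7c at 486 in replicate 1. Each copy is shorter than its parent, so its reads would add less at the parent's length than these sums show. The levels of these 5 members as deposited are therefore uncertain by the share given to the copies. How the reads split between parent and copy was not tested.

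**Figure D3:**
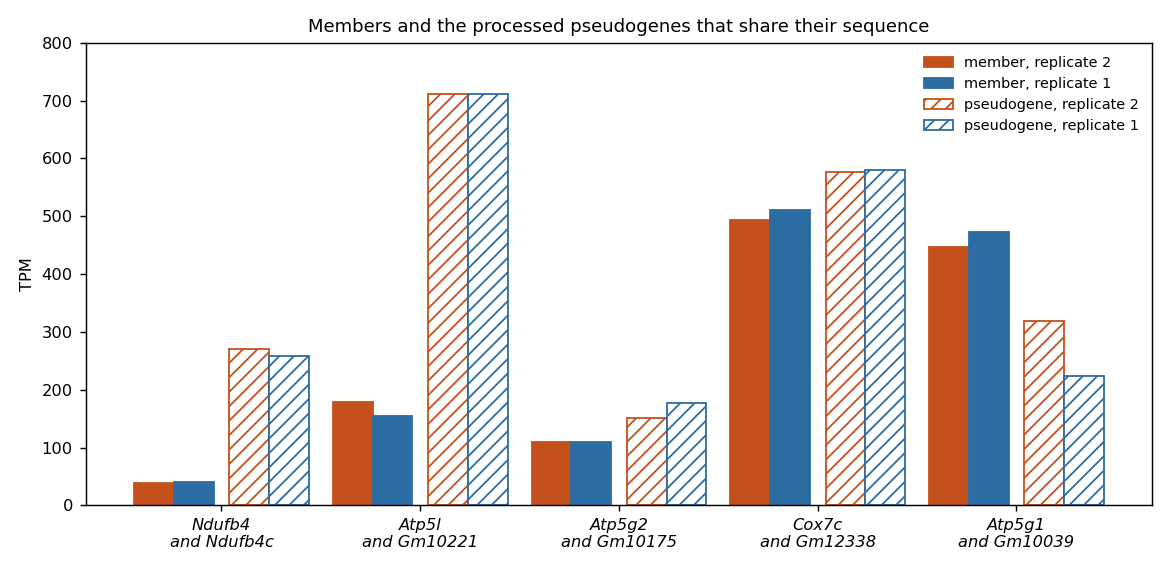
TPM of 5 members (filled bars) and of the processed pseudogene that shares at least 90% of its 31-base words with each (hatched bars), in replicate 2 and replicate 1. The pseudogene stands above the member in 4 of the 5 cases, by the most for Ndufb4 and Atp5l, and below it for Atp5g1.

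A further member depends on its gene model. Ndufa11, an accessory subunit of complex I at chr17:56717767-56722141, was at 72.3 TPM in replicate 2 and 72.8 TPM in replicate 1, among the 3 lowest of its complex. The deposited tables give it a length of 2661 bases, whereas its coding transcripts in a later annotation, GENCODE M21, have 493 to 918 bases. With those lengths in place of the deposited one, and all reads kept, its level would be 227 ± 0.995 to 472 ± 2.07 TPM (SD, n = 2). Whether all of its reads fall within those shorter transcripts was not tested, and reads outside them would lower these values. It was the only member whose deposited length exceeded its longest coding transcript of the later release more than 1.5-fold.

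Transcript tables gave the share of each gene's TPM by transcript. At 5 TPM or more in both libraries, 79 members were listed, 55 of them with at least 2 transcripts. The leading transcript was the same in both libraries for 54 of 55 and had a median share of 89.8%, and for 26 of them it held at least 90% in both. Only transcripts of the same length in both annotation releases are named here, which holds for 50 of the 55 leading ones.

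For 8 members the transcript that led by mean share is annotated as something other than protein coding. Ndufa5-204, a processed transcript, held 86.3% of Ndufa5 in each library. Atp5f1-203, annotated for nonsense-mediated decay, held 64.1% of Atp5f1 in replicate 2 and 64.6% in replicate 1, while the coding Atp5f1-201 held 33.7% and 33.3%. Atp5j-208, with a retained intron, held 60.4% and 62.5% of Atp5j. Atp5f1 codes for the b subunit of the stalk and Atp5j for its coupling factor, and both genes were above 400 TPM in total.

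In complex IV, Cox5b-205 held 59.4% of Cox5b in replicate 2 and 58.4% in replicate 1, and the coding Cox5b-204 held 35.3% and 35.9%. Cox7b was divided almost evenly, with 47.9% and 49.4% for Cox7b-203, which retains an intron, and 43.8% and 45.2% for the coding Cox7b-201. Ndufb4-202, another transcript with a retained intron, held 59.8% and 64.4% of Ndufb4. Ndufa10 and Cox6b2 were split over many transcripts, none above 30%. Gene levels of these 8 members are sums over transcripts of both kinds.

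**Figure D4:**
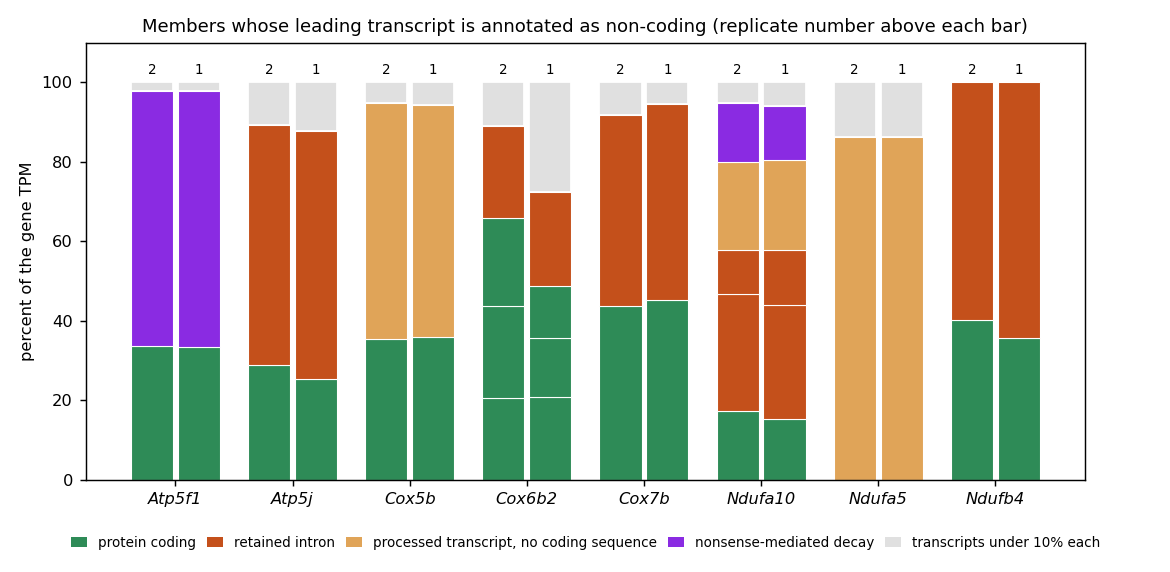
Percent of the gene TPM by annotated class of transcript for the 8 members whose leading transcript is not annotated as protein coding, replicate 2 left of replicate 1 for each gene; segments are transcripts with a mean of at least 10%. The split is nearly the same in both libraries except for Cox6b2. There the coding segments drawn are smaller in replicate 1, and the rest, in transcripts whose class is not drawn, is larger.

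Ndufs7, a core subunit of complex I, differed most in this respect between the libraries. Its coding transcript Ndufs7-201 held 85.6% in replicate 2 and 71.3% in replicate 1. The processed transcript Ndufs7-206 held 7.42% in replicate 2 and 22.9% in replicate 1. Its gene level was 252 TPM in replicate 2 and 223 TPM in replicate 1.

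Replicate 2 was then compared with replicate 1 by the log2 ratio of expected counts scaled by TMM, for 80 members with a mean count of at least 10. No member differed 1.5-fold in either direction, whereas 4.31% of protein-coding genes were at least 1.5-fold higher in replicate 2 and 2.22% at least 1.5-fold lower. Cox7a1, at 5.43 TPM in replicate 2 and 7.95 TPM in replicate 1, came closest, 1.42-fold lower in replicate 2. The median absolute log2 ratio was 0.09 for the members and 0.13 for all protein-coding genes, and it was 0.09 for both among genes with a mean count of at least 1000.

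The small differences mostly pointed one way. The ratio was above 0 for 70 of the 80 members, against 53.4% of all protein-coding genes, with a median of 0.08 for members and 0.01 for all. Among genes with a mean count of at least 1000, 67 of 74 members and 50.8% of 6980 genes were higher in replicate 2. All 8 genes of complex III and all 4 of complex II were above 0, with 31 of 37 in complex I, 16 of 17 in complex V and 11 of 14 in complex IV. On TPM, which includes the spike-ins, 65.0% of members and 44.8% of genes were higher in replicate 2.

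The largest positive ratios belonged to Atp5l at 0.25, Uqcr11 at 0.24 and Atp5s at 0.23. That of Atp5l is uncertain, because all words of the pseudogene Gm10221 occur in it. Gm10221 held 4951 counts in replicate 2 and 4254 in replicate 1, against 1585 and 1175 for Atp5l. The log2 ratio of Gm10221 was 0.04, and how the reads were divided was not tested. Uqcr11, a small subunit of complex III, had 444 TPM in replicate 2 and 385 TPM in replicate 1, from 3336 and 2486 counts, and its counting interval on the log2 scale was 0.17 to 0.32. The lowest ratios were those of Cox7a1 at -0.51, Cox4i2 at -0.10 and Ndufb7 at -0.06. Ndufb7, a subunit of the membrane arm of complex I, had 267 and 285 TPM. The counting intervals of all 3 lower genes included 0.

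**Figure D5:**
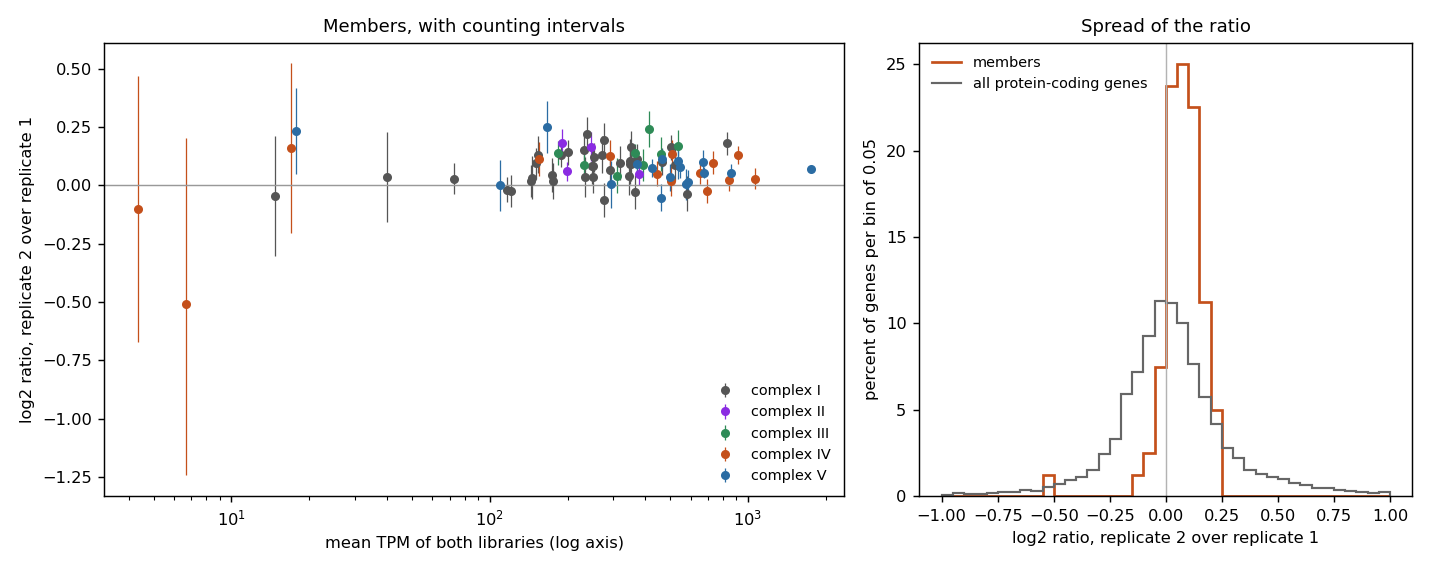
Left, the log2 ratio of replicate 2 over replicate 1 against mean TPM (log axis) for 80 members by complex, with 95% counting intervals; right, the percent of members and of all protein-coding genes per bin of the same ratio, drawn between -1 and 1. The members form a narrow peak just above 0, and the point at -0.51 is Cox7a1 with 31 and 39 counts.

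Other measures also differed between the pools in that direction or the opposite one. All 6 midbrain markers were higher in replicate 2, with a median log2 ratio of 0.23, and all 6 markers of mural cells were lower, with a median of -0.05. Enzymes of the tricarboxylic acid cycle, which supplies NADH and succinate, had a median of 0.12 with 11 of 13 above 0. Assembly factors had a median of 0.06 with 29 of 43 above 0. The mitochondrially encoded subunits had a median of -0.08 with 5 of 13 above 0, and the regulators of mitochondrial biogenesis a median of -0.10 with 4 of 11 above 0. Over all protein-coding genes 53.4% were above 0, and the quartiles of the ratio were -0.11 and 0.15. Of the medians of these small lists, only that of the midbrain markers lay outside those quartiles. The part of tissue composition or of the spike-in share in these ratios was not tested.

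The subunits encoded by the mitochondrial genome were set beside the nuclear ones per complex. In complex V the median of mt-Atp6 and mt-Atp8 was 14.8-fold above the nuclear median by mean, with log2 ratios of 3.83 in replicate 2 and 3.94 in replicate 1. The log2 ratio was 3.21 and 3.26 in complex III, which has mt-Cytb alone, and 1.84 and 2.07 in complex IV. With the posterior mean TPM that the files also hold, the mean log2 ratio in complex IV was 2.99. The ratios of complex IV use the median of all 18 nuclear genes, the restricted paralogues among them. Without the restricted paralogues that nuclear median was 655 TPM in replicate 2 and 649 TPM in replicate 1. The mitochondrial median was 1347 and 1513 TPM, so the ratio to the remaining nuclear genes is smaller. In complex I, the median of the 7 mitochondrial genes was 403 TPM in replicate 2 and 519 TPM in replicate 1, a log2 ratio of 0.66 and 1.05 to the nuclear median. By mean level 5 nuclear genes of complex I exceeded that mitochondrial median, whereas none did in complexes III, IV and V.

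These ratios carry a limit of their own. Over 50% of the 31-base words of 7 of the 13 mitochondrial genes also occur in nuclear genes, among them mt-Co2, mt-Co3 and mt-Atp6 with over 99%. On chromosome 1, 7 pseudogenes with at least 50% of their words in mitochondrial genes were listed at a summed 17913 TPM in replicate 2 and 18506 TPM in replicate 1, against 29155 and 31272 TPM for the 13 genes. Only 6.55% of the words of mt-Cytb were shared, and none of mt-Nd1. All 13 together took 3.08% of TPM in replicate 2 and 3.25% in replicate 1, close to the 3.21% and 3.07% of the nuclear members.

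Genes around the chain were lower than its subunits. Of 43 assembly factors, which build the complexes but are no part of them, all were detected, with a median of 40.3 TPM in replicate 2 and 36.9 TPM in replicate 1. Only Uqcc2, Coa3 and Cox14 reached 100 TPM in both libraries, Uqcc2 being the highest at 320.0 and 304 TPM. Among 13 enzymes of the tricarboxylic acid cycle the median was 124 TPM in replicate 2 and 111 TPM in replicate 1, led by Mdh2, malate dehydrogenase, at 499 and 475 TPM. Of 5 subunits and partners that the name rule does not take, 4 were above 100 TPM in both libraries. Ndufab1, an acyl carrier protein within complex I, had 505 and 494 TPM, Cyc1, the cytochrome c1 of complex III, 358 and 339.6 TPM, and Usmg5, a subunit of complex V, 1263 and 1182 TPM. Atpif1, the inhibitor of the ATP synthase, had 993 and 1059 TPM, whereas Cycs, the cytochrome c that carries electrons between complexes III and IV, had 61.8 and 58.7 TPM.

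The 11 regulators of mitochondrial biogenesis were all detected but low, with a median of 16.7 TPM in replicate 2 and 17.1 TPM in replicate 1. Tfam, which packages mitochondrial DNA and helps to start its transcription, was highest at 40.9 and 41.9 TPM. Nrf1, a factor known to bind many promoters of respiratory genes, had 28.0 and 29.9 TPM, Gabpa, the ETS factor known for the same promoters, 14.1 and 15.5 TPM, and Yy1 11.3 and 13.3 TPM. Ppargc1a, a coactivator of these factors, had 12.4 and 14.2 TPM, and its relative Ppargc1b was the lowest at 2.54 and 2.51 TPM.

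Members lay on 18 autosomes and the X chromosome, with no more than 8 on any of them. The 3 on the X chromosome were Ndufa1, a small subunit of complex I at 530.2 TPM in replicate 2 and 512 TPM in replicate 1, Ndufb11 at 174 and 176 TPM, and Cox7b. Both pools hold male and female embryos, so these levels are means over the sexes.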

How the data were processed

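Total RNA-seq of 2 libraries from 1 group of mouse embryonic midbrain was used. Per the deposited readme the authors used mm10 and GENCODE M4. The aligner, the quantifier, their versions and the use of strand are not given in the sources for this work, so reads of overlapping or antisense genes cannot be told apart. The authors deposited an unnormalized expected count for each gene, per the file headers, an estimate that is often not a whole number. The deposited TPM values are corrected for effective length, their total is the same for both libraries and counts the spike-ins, and a posterior mean TPM stands beside them. Transcript tables deposited beside these give the percent that each transcript takes within its gene.

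Symbols, types and coordinates came from GENCODE M21 (GRCm38, the assembly of mm10), joined by identifier without version. The identifier that did not match a row was a further entry for Atp5o. Members were matched by symbol and assigned to complexes by name. The members, lists, pairs and thresholds were chosen with earlier results of these data known. Values in both libraries are given for the 2 highest and 2 lowest members of each complex, all paralogues, members below 1 TPM in both libraries and the 3 members per direction with the largest difference; Sdhc, Uqcr11, Ndufs7, Ndufv2 and others named for a role, a transcript or a pseudogene were taken after their values were seen. Levels are as deposited, and shares leave out spike-ins and use all Ensembl genes.

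Replicate 2 held 36576263 expected counts, and replicate 1 held 31830355. The labels call the libraries biological replicates, but they share a donor identifier, so the SD may partly be technical. Ratios used expected counts rounded to whole numbers for TMM factors from edgeR 4.0.16, with 0.5 added, for genes with a mean count of at least 10; DESeq2 1.42.0 gave alternative size factors. A gene at 0 counts was set at 3 counts, and intervals are exact at 95% (Poisson, or binomial for ratios between libraries), for counting error only. The 1.5-fold rule was checked on simulated counts with a coefficient of variation of 10%: of 50 genes changed by log2 1 it recovered 96%, and 3.60% of 14807 unchanged genes passed it. Shared sequence was searched as words of 31 bases in M21 transcripts. Proteins were translated from M21 coding sequences and aligned globally with Biopython 1.88 (BLOSUM62). Calculations ran in Python 3.11.15 with pandas 2.3.3, numpy 2.4.6 and scipy 1.17.1. Of the members and markers, 1 of each is not reported here by name.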

Additional observations from a re-analysis of the deposited data

How the results depend on the processing

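Of 63 alternative values that keep both libraries, 31 moved by less than the spread between the libraries (for the median ratio between replicates, its counting error) or, for counts, by no more than 1.5-fold, and no log2 ratio changed sign. With the posterior mean TPM the median of all members was 299 TPM in place of 307, that of complex I 246 and that of complex V 484. The log2 ratio was then 5.85 for Cox6b1 over Cox6b2, 2.93 for Atp5g3 over Atp5g2, 11.91 for Cox8a over Cox8b and 12.42 for Cox8a over Cox8c, and mitochondrial over nuclear ratios were 2.99 in complex IV and 3.78 in complex V. Leaving out members that share over 10% of their words gave medians of 294 TPM for all, 338 for complex III, 293 for complex IV and 554 for complex V. Adding the TPM of the abundant pseudogenes, scaled to their own lengths, to that of their parents was chosen after seeing the data. It gave 316 TPM for all and 546 TPM for complex V. The log2 ratios were then 0.24 for Atp5g3 over Atp5g1 and 1.66 for Atp5g3 over Atp5g2. Expected counts, which are not corrected for length, gave log2 ratios of 7.38 for Cox7a2 over Cox7a1, 11.08 for Cox8a over Cox8b and over Cox8c, 4.68 for Ndufa4 over Ndufa4l2 and 1.13 for Atp5g3 over Atp5g1. The share of members was 3.65% of the TPM of nuclear protein-coding genes and 1.27% of expected counts. Between replicates 1 of 80 members, Cox7a1, passed a lower fold threshold than 1.5-fold, against 17.4% of 15000 protein-coding genes. No member passed 2-fold, against 1.92% of those genes. Apart from length and the genes left out, the cause of these shifts was not tested.

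Without either replicate the median of all members ran from 304.4 to 309.7 TPM, and 80 to 81 members were detected. Cox7b over Cox7b2 moved by over 1.5-fold, from a mean of 430-fold to 728-fold without replicate 1 and 254-fold without replicate 2. With 2 libraries, leaving one out moves a mean by less than its SD by construction, so these ranges say nothing of stability. No paired analysis was possible because there is only 1 group. With 2 libraries that share a donor identifier an SD is itself poorly known, and genes under about 10 counts, such as Cox6a2 and Cox7b2, are limited by depth.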
